A study of Mus musculus with 6 samples.

Results

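Keratin genes were described in 3 T-cell lymphomas of Dnmt3b+/- mice. They were chosen by name, as every gene whose symbol is Krt followed by a number and at most 1 letter, and 54 of the 34245 genes in the expression table met this rule. The study asked how loss of 1 allele of Dnmt3b, a DNA methyltransferase, acts in mouse T-cell malignancies, and collected peripheral T-cell lymphomas (PTCL) for whole-genome bisulfite sequencing and RNA-seq. Of its 6 samples, the 3 RNA-seq libraries are used here, and the 3 bisulfite libraries were not used here. All 3 tumors had the genotype Dnmt3b+/- on the strain labelled FVB, given as FVB/N in the study's methods, and came from lymph nodes of terminally sick mice that had received no treatment named in the labels, which also give no age. The targeted allele is inactivated in the germline, so every cell of the animal carries it, the epithelia and the stroma of the node included. No sorting of cells is named in the labels, and the 3 libraries form a single group, so nothing could be tested between groups and every value is a description.

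Keratins are the intermediate filament proteins of epithelia. An acidic type I keratin and a basic type II keratin pair to form each filament, and the pair a cell uses depends on its tissue, so that simple epithelia, basal layers, upper epidermis and hair each have their own set. Lymphoid cells use vimentin in their cytoplasm instead, and the epithelial keratins of a lymph node library are therefore commonly read as a sign of other tissue.

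Expression was deposited as FPKM, which divides the fragments of a gene by its exon length and by the sequencing depth. The depth was 30726570, 18969988 and 20770928 reads in tumors 1, 2 and 3, as computed from the value that a gene without a read carries. The FPKM and the exon length of a gene together gave its reads, and a gene without a read was counted at 0. Dnmt3b (ENSMUSG00000027478) had 0.975, 1.55 and 1.25 FPKM in tumors 1, 2 and 3 (mean 1.26 ± 0.287, SD, n = 3). A value for the whole gene does not separate the intact from the targeted allele, so it does not check the genotype. The labelled T-cell lymphoma was checked with 8 T cell genes, all of which were above 0.2 FPKM in every tumor. Summed, they reached 1268, 969 and 1346 FPKM. Cd8b1, a chain of the CD8 coreceptor, had the highest mean, with 434.7, 166 and 443 FPKM in tumors 1, 2 and 3, although Lck exceeded it in tumor 2. Cd8a, its partner chain, had 258.5, 122 and 218 FPKM, and the kinase Lck had 159.6, 208 and 207.

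Most keratin genes had no read at this depth. No read was found in any tumor for 47 of the 54 genes, beside 41.3% of all genes in the table. Keratin genes with a read numbered 6, 6 and 5 in tumors 1, 2 and 3. Together they held 221 reads, of which 108, 63 and 50 were in the respective libraries. A count of 0 was taken to allow up to 3 reads, a limit somewhat below the upper end of the exact 95% interval of 0 reads. For 46 of the silent genes, this limit lay between 0.0266 and 0.108 FPKM in tumor 1, between 0.0431 and 0.175 in tumor 2 and between 0.0394 and 0.160 in tumor 3. Krt81, a hair keratin, has no limit here, since no annotated exon length gave whole reads, but its values stand in the ratio of the depths as those of a gene without a read do. Limits and intervals cover counting error only.

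Above 0.2 FPKM in every tumor, the value used here to separate expressed from silent genes, stood 1 keratin gene, beside 36.1% of all genes. In at least 1 tumor, 4 keratin genes were above it, beside 45.4% of all genes. These 4 were Krt10, Krt222, Krt80 and Krt18. The other 3 genes with reads, Krt7, Krt8 and Krt83, stayed below it in every tumor and were named after their values were seen. In bulk samples, fewer cells of a type and less RNA per cell cannot be told apart, so a low value can be either.

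**Figure D1:**
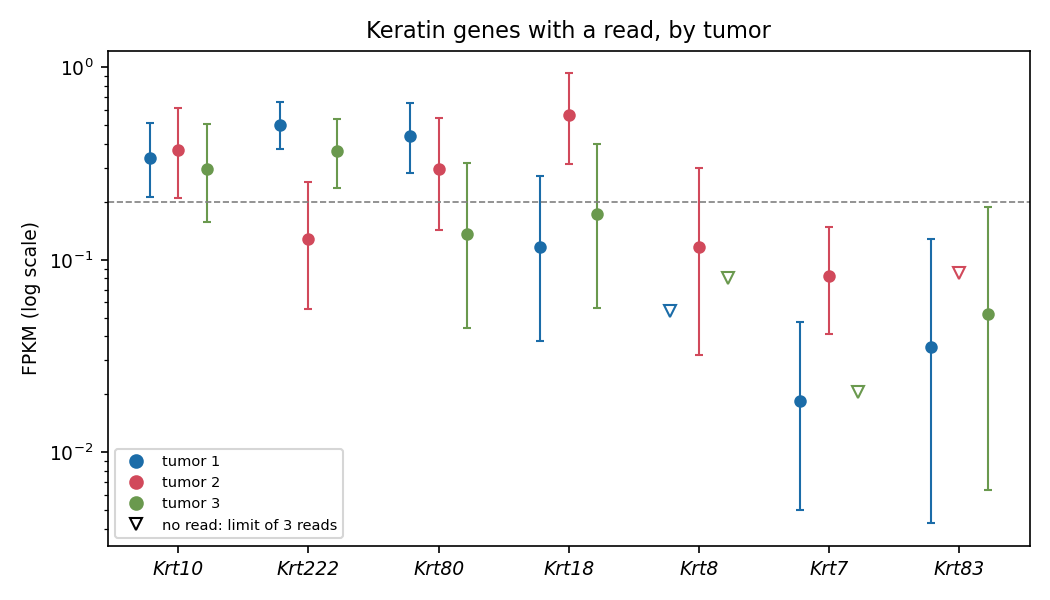
FPKM on a log scale of the 7 keratin genes with a read, in each tumor. Points are values with exact 95% intervals of the read count, open triangles are the limit of 3 reads where a tumor had no read, and the dashed line is 0.2 FPKM. The points of Krt10 lie above the line in all 3 tumors, although its interval in tumor 3 crosses the line. Krt18, Krt8, Krt7 and, by a small margin, Krt10 have their highest value in tumor 2.

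Simple epithelium was represented by 6 genes, of which Krt18, Krt8 and Krt7 had reads. Krt18, the type I keratin of single-layered epithelia, lies on chromosome 15 of mm10 from 102028216 to 102032026 on the plus strand. Its 5, 15 and 5 reads in tumors 1, 2 and 3 gave 0.116, 0.565 and 0.172 FPKM (mean 0.284 ± 0.244, SD, n = 3). The exact 95% interval in tumor 2, 0.316 to 0.932 FPKM, did not overlap that in tumor 1, 0.0377 to 0.271, but did overlap that in tumor 3, 0.0558 to 0.401. Tumor 2 thus held 66.2% of its FPKM. Krt8, the type II partner of Krt18 and its neighbour on the chromosome, had 0.117 FPKM in tumor 2 from 4 reads and no read in tumors 1 and 3. The limits of 3 reads there were 0.0541 and 0.0800 FPKM, the exact intervals reached 0.0665 and 0.0984, and the interval of tumor 2, 0.0318 to 0.299, overlapped both, so that 4 reads do not fix the size of a difference between tumors. Krt7, a type II keratin of ducts and glands, had 4 reads in tumor 1 and 11 in tumor 2, which gave 0.0185 and 0.0822 FPKM, and no read in tumor 3. Its interval in tumor 2, 0.0411 to 0.147 FPKM, lay apart from that of tumor 3, which had no read and ended at 0.0252 by the exact interval, against 0.0205 by the limit of 3 reads, and met that of tumor 1. All 3 genes were highest in tumor 2, also after FPKM were rescaled to a common sum or divided by size factors. Over the list, the 6 simple keratins had 9, 30 and 5 reads in tumors 1, 2 and 3. Per 1000000 reads this was 0.293 (exact 95% interval 0.134 to 0.556), 1.58 (1.07 to 2.26) and 0.241 (0.0782 to 0.562), so tumor 2 lay apart from both others in counting error. The other simple keratins, Krt19 of ducts, Krt20 of the gut and Krt23, had no read in any tumor.

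Starts of the keratin genes are shown because Krt7, Krt8 and Krt18 shared their highest tumor and Krt10 was the gene with values above 0.2 FPKM throughout. The windows run 5′ to 3′ on the strand of the gene, hold 300 bases around the annotated start, and come from RefSeq on GRCm38.p6. For Krt7, Krt8 and Krt18 they reach from 250 bases before the start of the RefSeq gene to 50 bases into it, and for Krt7 that start lies 1360 bases inside the gene as the expression table draws it. Krt7 is at chr15:101412153-101412452 on the plus strand, Krt8 at chr15:102004293-102004592 on the minus strand, Krt18 at chr15:102027966-102028265 on the plus strand and Krt10 at chr11:99389315-99389614 on the minus strand. Capitals mark the GC box GGGCGG, or CCGCCC on the other strand, and the TATA motif TATAAA, or TTTATA on the other strand, which can overlap.
Krt7: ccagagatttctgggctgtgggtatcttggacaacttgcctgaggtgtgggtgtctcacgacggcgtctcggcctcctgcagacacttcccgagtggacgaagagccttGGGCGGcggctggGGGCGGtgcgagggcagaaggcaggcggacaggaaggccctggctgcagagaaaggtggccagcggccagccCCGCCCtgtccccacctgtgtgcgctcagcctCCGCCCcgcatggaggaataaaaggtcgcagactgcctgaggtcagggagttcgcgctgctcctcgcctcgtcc
Krt8: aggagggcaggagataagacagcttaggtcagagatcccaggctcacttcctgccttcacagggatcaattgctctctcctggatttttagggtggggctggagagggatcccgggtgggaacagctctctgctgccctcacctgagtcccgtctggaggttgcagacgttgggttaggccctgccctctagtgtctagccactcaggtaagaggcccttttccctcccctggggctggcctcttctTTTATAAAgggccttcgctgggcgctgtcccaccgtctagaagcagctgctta
Krt18: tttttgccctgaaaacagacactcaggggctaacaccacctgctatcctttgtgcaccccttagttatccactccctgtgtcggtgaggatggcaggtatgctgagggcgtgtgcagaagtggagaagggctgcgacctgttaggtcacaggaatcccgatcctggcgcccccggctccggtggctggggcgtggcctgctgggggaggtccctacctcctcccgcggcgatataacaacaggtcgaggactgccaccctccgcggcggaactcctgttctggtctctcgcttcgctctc
Krt10: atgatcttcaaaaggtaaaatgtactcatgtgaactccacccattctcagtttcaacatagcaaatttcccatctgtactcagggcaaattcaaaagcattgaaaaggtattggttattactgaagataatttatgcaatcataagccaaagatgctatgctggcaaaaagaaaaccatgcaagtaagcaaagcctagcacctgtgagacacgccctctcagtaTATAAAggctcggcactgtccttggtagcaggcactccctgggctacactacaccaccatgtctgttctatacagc
The window of Krt7 held 4 GC boxes and no TATA motif. That of Krt8 held the TATA motif on both strands in overlapping letters, that of Krt10 held it 1 time, and that of Krt18 held neither motif. CG pairs numbered 21 in the window of Krt7, 17 in Krt18, 6 in Krt8 and 2 in Krt10. Neither motif was thus found in all of Krt7, Krt8 and Krt18, while the TATA motif was found in both Krt8 and Krt10. Promoter windows were found for 36 of the 54 keratin genes. Of the 32 without a read, 17 held the TATA motif and 1 held a GC box, with a median of 4.5 CG pairs. Over all 32851 windows of this length, 13.6% held the TATA motif, 35.7% held a GC box, and the median was 7.0 CG pairs. These matches describe letters in the window and were not tested for a relation to expression.

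Keratins of the upper epidermis numbered 7, and 2 had reads. Krt10 (ENSMUSG00000019761), a type I keratin of differentiating skin cells, lies on chromosome 11 from 99385254 to 99389364. Tumors 1, 2 and 3 had 0.339, 0.374 and 0.296 FPKM of it, from 22, 15 and 13 reads (mean 0.336 ± 0.0390, SD, n = 3). Tumor 2 was highest, as for the simple keratins, but all of its intervals overlapped, and its highest value was 1.26-fold its lowest, so it was the most even of the 4 genes above 0.2 FPKM. Krt1, its usual type II partner in skin, had no read in any tumor, nor had Krt2, Krt9, Krt77 and Krt78. A gene annotated on the opposite strand inside Krt10, Gm11940, had 2 reads in tumor 1 and none in tumors 2 and 3. Whether counting used the strand is not given in the sources used here, so reads of the 2 genes cannot be told apart.

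Krt80 (ENSMUSG00000037185), a type II keratin of maturing epithelial cells, lies on chromosome 15 from 101349571 to 101370125. Its FPKM of 0.440, 0.297 and 0.136 in tumors 1, 2 and 3 came from 24, 10 and 5 reads (mean 0.291 ± 0.152, SD, n = 3). Tumor 1 was 3.24-fold higher than tumor 3, but the intervals of all pairs of tumors overlapped. This order was unlike that of the simple keratins, since tumor 1 and not tumor 2 stood highest.

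Krt222 (ENSMUSG00000035849), a keratin-like type I gene for which no tissue role was listed, lies on chromosome 11 from 99232761 to 99244085, at the edge of the type I cluster. It had the most reads of any keratin gene in tumors 1 and 3 but not in tumor 2, with 51, 8 and 25 reads in tumors 1, 2 and 3, which gave 0.504, 0.128 and 0.366 FPKM (mean 0.333 ± 0.190, SD, n = 3). Tumor 2 was lowest, and its interval of 0.0553 to 0.252 FPKM lay apart from that of tumor 1, 0.375 to 0.663. It did overlap that of tumor 3, 0.237 to 0.540. Krt222 thus had its lowest value in the tumor in which Krt18, Krt8 and Krt7 had their highest. The nearest gene that is not a keratin, Smarce1, a chromatin remodelling subunit on the same strand, lay 1744 bases away and had 10.4, 9.12 and 9.73 FPKM. Smarce1 was nearly level between tumors, and its part in the reads of Krt222 was not tested.

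The remaining roles were close to empty. All 3 keratins of the basal layer, Krt5, Krt14 and Krt15, had no read in any tumor, and the same held for the 5 of mucosa and cornea and the 4 of wounded or fast-growing epithelium. Krt6a and Krt6b of the last set are near-identical copies, and reads that map to both could be removed by the filter on mapping quality. The 10 keratins of the inner root sheath and companion layer of the hair follicle had no read either. Of 15 hard keratins of hair and nail, Krt83 had 2 reads in tumor 1 and 2 in tumor 3, which gave 0.0354 and 0.0523 FPKM, and no read in tumor 2. These counts lie within what a count of 0 allows. Without a listed role, Krt42, Krt88 and Krt90 also had no read.

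**Figure D2:**
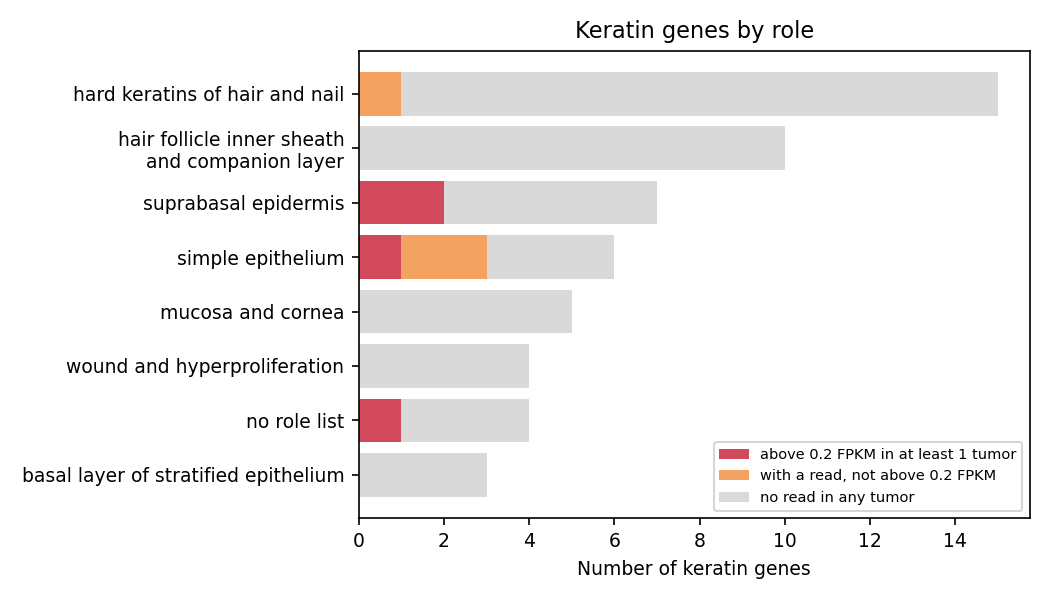
Number of keratin genes in each role, divided into those above 0.2 FPKM in any of the tumors, those with a read that were not above it, and those with no read in any tumor. Simple epithelium has 3 of 6 genes with a read and upper epidermis 2 of 7, while the basal layer has none of 3.

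Summed over all 54 genes, keratins reached 1.45, 1.56 and 1.02 FPKM in tumors 1, 2 and 3 (mean 1.35 ± 0.286, SD, n = 3). The order of tumors 1 and 2 turned when FPKM were rescaled to sum to 1000000, with 7.70 and 7.55, so these 2 tumors cannot be ranked by the sum. Makeup differed more than the total. The simple keratins held 9.27%, 48.9% and 16.8% of the sum in tumors 1, 2 and 3. Krt222 held 34.7% in tumor 1 and 35.8% in tumor 3 but 8.20% in tumor 2. Krt10 contributed 23.3%, 23.9% and 29.0% in tumors 1, 2 and 3.

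**Figure D3:**
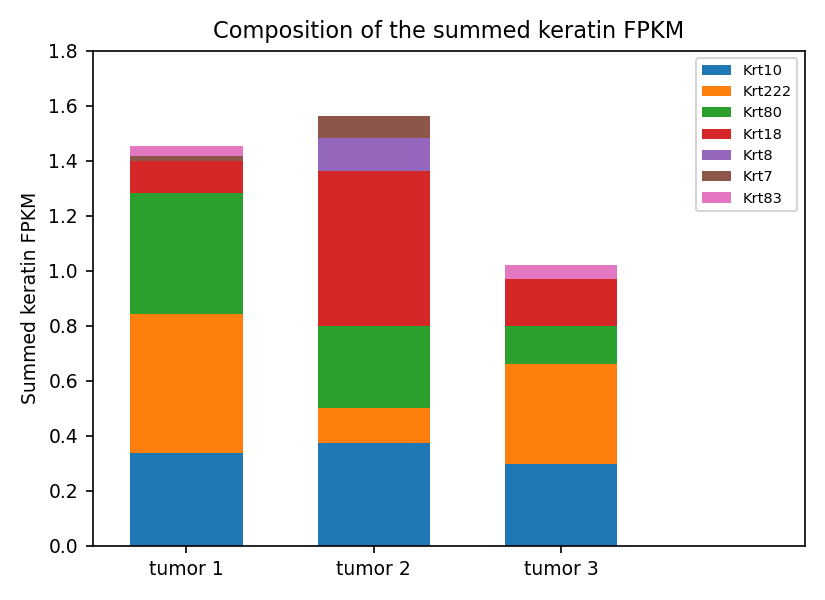
Summed keratin FPKM in each tumor, stacked by gene, with a gene without a read at 0. The totals are 1.45, 1.56 and 1.02 FPKM, and Krt18 takes the largest share in tumor 2 while Krt222 does so in tumors 1 and 3.

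Type I and type II genes were unequally represented in the summed FPKM, although 3 type I and 4 type II genes had a read. In tumor 3 the type II reads were only 5 of Krt80 and 2 of Krt83. The 25 type II genes held 34.0%, 31.7% and 18.4% of the sum in tumors 1, 2 and 3 (mean 28.0% ± 8.43, SD, n = 3), and the rest lay in type I genes. Of the pairs known from tissues, Krt8 with Krt18 had reads of both partners in tumor 2 and of Krt18 alone in tumors 1 and 3. Neither Krt5 nor Krt14, the basal pair, had a read.

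A gene was taken as carried by 1 tumor when that tumor had more than 2 times the FPKM of the others summed, at deposited values, in which a gene without a read keeps its small value. Of the 4 keratin genes that passed 0.2 FPKM somewhere, 0 were carried by 1 tumor, Krt18 falling just short, beside 12.4% of all 15535 genes that passed, or 13.4% with a gene without a read at 0. The count rests on the setting, with 3, 1 and 2 genes when tumor 1, 2 or 3 was left out. It was 1 with a threshold of 0.1 FPKM and 0 with size factors. With no filter it was 2, where Krt7 and Krt8 had 77.0% and 74.4% of their deposited FPKM in tumor 2. Rescaled FPKM also gave 2, but rescaling multiplied tumors 1, 2 and 3 by 5.30, 4.83 and 4.47. The threshold was kept, so rescaling acts much as a lower threshold does. With a tumor left out, a gene needs only more than 2 times the FPKM of 1 other tumor. The share over all genes was taken only with all 3 tumors and a threshold of 0.2 FPKM. Counts under the other settings thus have no background, and nothing is read from them about the keratins. The median range between the highest and lowest tumor was 1.30 on the scale of log2(FPKM + 0.1), beside 0.88 for all genes that passed, and it was 0.38 without tumor 2. A gene can pass through its high tumor alone, as Krt18 did, so the filter itself widens the range, and nothing is read from it about the keratins.

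The name epithelial content, under which the genes were grouped, was checked against other markers. Of all genes in the table, 36.1% were above 0.2 FPKM in every tumor and 45.4% in at least 1. The share in a single tumor lies between these. A count near these shares, here and for the lists below, is not read as a sign that a list is expressed. Of 20 genes of epithelial identity and tight junctions, 8, 5 and 6 were above 0.2 FPKM in tumors 1, 2 and 3. Their sum was 43.8, 8.28 and 4.72 FPKM. Taken gene by gene, 6 were highest in tumor 1, 10 in tumor 2, as the simple keratins were, and 3 in tumor 3, so the list was not of 1 order. Most of the sum in tumor 1 came from Cldn4, a tight junction claudin, with 26.3 FPKM there, no read in tumor 2 and 0.0265 FPKM in tumor 3. Cdh1, the adhesion protein E-cadherin, had 13.7, 0.934 and 0.410 FPKM in tumors 1, 2 and 3. Tjp3, a tight junction scaffold, had 0.920, 4.10 and 1.85 FPKM. Epcam, the surface protein most used to mark epithelium, had 0.415, 1.14 and 0.307 FPKM and, like Krt18, was highest in tumor 2. St14, a membrane protease, had 0.605, 0.462 and 0.738 FPKM, and the splicing factor Esrp2 had 0.570, 0.510 and 0.710. These genes, Cdh1, Tjp3 and Epcam included, make the 5 of the list above 0.2 FPKM in every tumor. Elf3, an epithelial transcription factor, had no read in any tumor, and Esrp1 and Grhl2 had at most 2 reads in a tumor. The markers were thus mixed, with some epithelial genes expressed, reads of Krt18 in every tumor, and no read of Krt5, Krt14 and Krt19, which not every epithelium carries. Whether the keratin values measure epithelial content was not tested, so the genes are called keratin genes here.

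Desmosomes and hemidesmosomes are the junctions to which keratin filaments attach. Of 14 such genes found, 7, 6 and 1 were above 0.2 FPKM in tumors 1, 2 and 3, with sums of 12.2, 18.5 and 9.68 FPKM. Pkp3, a plakophilin of desmosomes, was the most abundant in each tumor, with 8.64, 6.79 and 9.11 FPKM. Itgb4, the integrin that binds keratins to the basement membrane, had 0.0742, 4.97 and 0.0275 FPKM. Dsp, the desmoplakin that anchors the filaments, had 0.0303, 2.79 and 0.0349 FPKM. Itgb4 and Dsp were highest in tumor 2, where they had 661 and 512 reads. The list was divided, with 6 genes highest in tumor 2, 6 in tumor 1, among them the desmosomal cadherins Dsc3, Dsg2 and Dsc2, and Pkp3 in tumor 3. Dsg3, a desmoglein of stratified epithelium, had no read. Eppk1 was not analysed here. Of 10 genes of the cornified envelope, the shell that dying skin cells build, 8 had no read in any tumor, among them Lor, Ivl and Flg. Tgm1, its crosslinking enzyme, had 1.61, 0.421 and 0.160 FPKM, which made most of the list's sums of 1.61, 0.539 and 0.160, and Cdsn had 6 reads in tumor 2. Above 0.2 FPKM, there was 1 gene in tumor 1, 1 in tumor 2 and 0 in tumor 3.

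Other intermediate filaments far exceeded the keratins. Vim, the vimentin of lymphoid and mesenchymal cells, had 122.5, 74.3 and 79.3 FPKM in tumors 1, 2 and 3, which was 84.3, 47.5 and 77.6 times the summed keratin FPKM. The lamins Lmnb1 and Lmnb2 of the nuclear envelope had 42.2, 35.4 and 33.1 FPKM and 7.18, 9.30 and 6.99 FPKM. Of the 15 genes of this list, 7, 8 and 6 were above 0.2 FPKM, and the sums were 179.7, 129.8 and 124.8 FPKM.

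Markers of glands that carry simple keratins differed widely between tumors. Of 21 genes of pancreatic acinar cells, 19, 18 and 3 were above 0.2 FPKM in tumors 1, 2 and 3, with sums of 114.8, 597.4 and 2.47 FPKM. Ctrb1, a digestive protease precursor, had the highest mean, with 33.9 and 198 FPKM in tumors 1 and 2 and no read in tumor 3. Prss2, a trypsin, had 14.9, 52.1 and 0.177 FPKM, and the elastase Cela2a had 6.72, 50.7 and 0.196. Ptf1a, the transcription factor that defines these cells, had no read in any tumor. Salivary gland genes stood out in tumor 2, where 8 of 12 were above 0.2 FPKM, against 1 in tumor 1 and 5 in tumor 3, and their sums were 2.86, 329.8 and 3.92 FPKM. The mucin-like gene Mucl2 gave 296.4 FPKM in tumor 2, most of the sum there, and no read in the others. Prol1, a secreted proline-rich protein, had 15.3 FPKM in tumor 2 and no read elsewhere. Car6, the secreted carbonic anhydrase, had 7.90 FPKM in tumor 2, 0.318 in tumor 3 and no read in tumor 1. Tumor 2 led for 8 of the 12 salivary genes, but not for all. Amy1 peaked in tumor 1, with 2.80 FPKM against 0.765 and 1.30 in tumors 2 and 3. Bpifa2 and Smr3a peaked in tumor 3, with 1.29 and 0.603 FPKM there. In tumor 2 these 2 genes had 0.236 and 0.165 FPKM. The sums of both gland lists were highest in the tumor in which the simple keratins were highest, and Krt18 in tumor 1 stayed at 0.116 FPKM beside an acinar sum of 114.8. The part of the gland genes in the keratin values was not tested.

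Duct genes of the pancreas summed to 0.744, 3.05 and 0.154 FPKM, with 1, 2 and 0 of 9 above 0.2 FPKM. Tff2, a secreted trefoil peptide, had 2.53 FPKM in tumor 2 from 28 reads, 1 read in tumor 1 and none in tumor 3, the mucin Muc1 had 0.111, 0.449 and 0.0821 FPKM, and the chloride channel Cftr had 0.365 FPKM in tumor 1 and no read in the others. Onecut1 and Ambp had no read. Mesothelial genes, from a lining that also carries Krt7, Krt8 and Krt18, summed to 1.16, 1.65 and 0.213 FPKM, with 2, 1 and 0 of 8 above 0.2 FPKM. Lrrn4 led them with 0.727, 1.33 and 0.168 FPKM, followed by Gpm6a with 0.213, 0.0492 and 0.0449, while Msln, the mesothelin that names the tissue, had 6, 6 and 0 reads. Both sums were highest in tumor 2 and lowest in tumor 3. Taken gene by gene, 5 duct genes were highest in tumor 1 and 2 in tumor 2. Of the mesothelial genes, 3 were highest in tumor 1 and 4 in tumor 2.

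Mammary, thymic and intestinal lists were partly silent. In the mammary list, 8 of 10 genes had no read in any tumor, the caseins Csn1s1 and Csn2 and Wap among them. Its sums of 5.21, 4.98 and 15.1 FPKM came almost wholly from Glycam1, an adhesion ligand that lymph node vessels also make, and Csn3 had 2 reads in tumor 3. Glycam1 was the 1 gene of that list above 0.2 FPKM in each tumor. Of 9 thymic genes, Foxn1, Psmb11, Fezf2 and Tbata had no read, and 4, 3 and 3 were above 0.2 FPKM. The chemokine Ccl25 had 1.20, 0.602 and 0.414 FPKM and the regulator Aire had 22, 8 and 7 reads, in tumors 1, 2 and 3. Their sums of 22.1, 11.3 and 14.1 FPKM rested on Ly75 with 13.9, 7.28 and 8.90 and on Cd83 with 4.43, 3.32 and 4.60, both of which dendritic cells also express, while the protease Prss16 had 2.42 FPKM in tumor 1, no read in tumor 2 and 0.115 in tumor 3. Intestinal genes summed to 2.95, 4.09 and 2.20 FPKM, with 2, 1 and 1 of 8 above 0.2 FPKM, and Cdx1, Cdx2, Fabp2, Muc2 and Gpa33 had no read. Lgals4, a galectin, led them with 2.60, 3.92 and 2.06 FPKM, followed by the cadherin Cdh17 with 0.342, 0.0943 and 0.129 and by Vil1, the villin of the brush border, with at most 5 reads.

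Tissue that is not epithelial was listed for comparison. Stroma and endothelium of the lymph node had 9, 9 and 3 of 9 genes above 0.2 FPKM and sums of 52.96, 57.3 and 7.54. Ccl21a, a chemokine of the node's stroma, had 19.3, 14.1 and 2.21 FPKM, Pecam1 of endothelium had 12.2, 10.9 and 4.86, and the collagen Col1a1 had 1.63, 15.5 and 0.315. All 7 adipocyte genes were highest in tumor 2, and 2, 5 and 0 were above 0.2 FPKM, with sums of 1.65, 20.3 and 0.0643. Cfd, a complement factor of fat, had 0.882 and 14.5 FPKM in tumors 1 and 2 and no read in tumor 3, the lipid carrier Fabp4 had 0.536, 2.22 and 0.0643, and the hormone gene Adipoq had 0.0943 and 2.18 and no read in tumor 3. The sums of the adipocyte, acinar and salivary lists were thus highest in the same tumor as Krt18, Krt8 and Krt7. The same held for the desmosome, duct, mesothelial, intestinal and stroma sums, so it was not particular to a tissue. The sums for epithelial identity, cornified envelope, thymic epithelium and other intermediate filaments were highest in tumor 1. The mammary and T cell sums were highest in tumor 3. The stroma and endothelium list was divided, with 5 genes highest in tumor 2, Col1a1 among them, and 4 in tumor 1. Among those 4, Ccl19 had 12.4 and 3.95 FPKM in tumors 1 and 2, and Lyve1 had 4.13 and 1.28. The part of these lists in the keratin values was not tested.

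**Figure D4:**
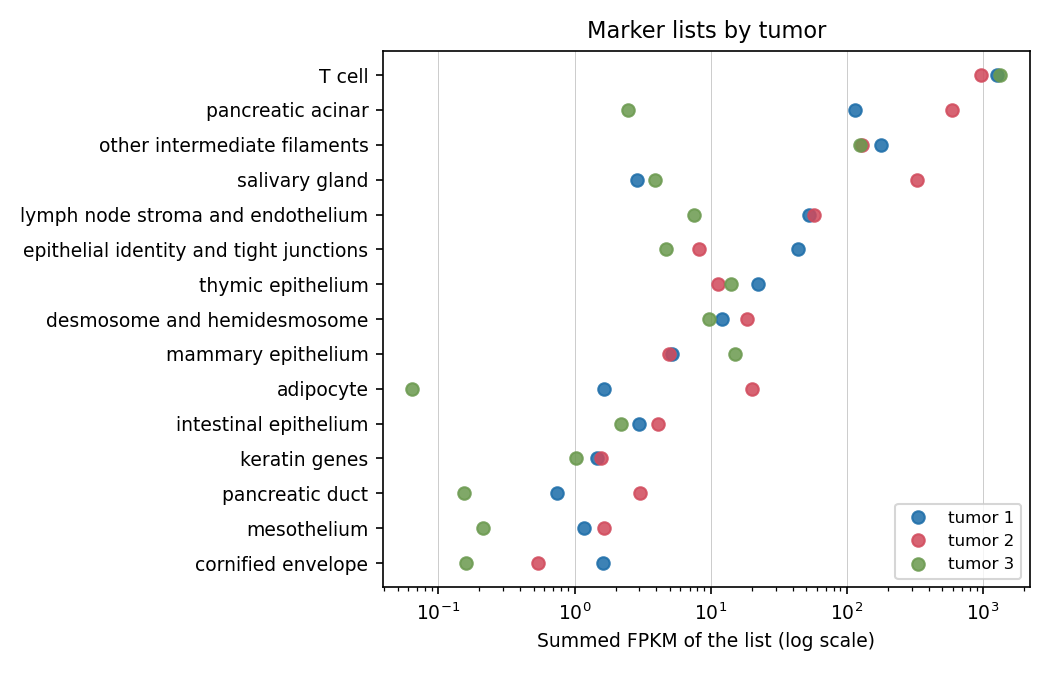
Summed FPKM of each marker list and of the keratin genes on a log scale, with 1 point for each tumor. The keratin genes lie between 1.02 and 1.56 FPKM, a narrow range beside that of pancreatic acinar genes, from 2.47 to 597.4, and of salivary gland genes, from 2.86 to 329.8. Narrow ranges are also seen for T cell genes, from 969 to 1346, and other intermediate filaments, from 124.8 to 179.7.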

How the data were processed

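RNA-seq libraries of 3 Dnmt3b+/- PTCL were sequenced by the study with paired-end reads of 150 bp. For mapping to mm10 the authors used STAR after trimming. Reads with a quality of mapping of 50 or more were counted in SeqMonk, and the authors deposited FPKM, a column for each tumor. SeqMonk gives a gene without a read the value of 0.9 read, which gave the depth. Reads were recovered with GENCODE M21 exon lengths, using combinations of transcripts within the gene's deposited span where needed, and were taken as whole within 0.001 of a read, relative above 1 read. The merged exons alone gave whole reads for 95.4%, 95.0% and 94.9% of values in tumors 1, 2 and 3, a share that the relative tolerance eases for high counts. Whole reads were found for 53 of 54 keratin genes. Intervals are exact Clopper-Pearson intervals.

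Keratin genes above 0.2 FPKM in at least 1 tumor were named with all values, other keratin genes by role, and from each of 14 marker lists the 3 genes of highest mean FPKM. Further members of these lists were also named, outside this rule. Members and lists were chosen with earlier results of these data known. For a repeated symbol the row of highest mean was used. No count model was fitted to FPKM. The alternatives were each tumor left out, other thresholds, shares, pseudocounts and scalings, and silent genes at their deposited value in the sums. Shares and ranges used deposited values, and silent genes at 0 were an added alternative. The steps were tested on simulated tables. Values were computed in Python 3.11 with SciPy 1.17.1, NumPy 2.4.6 and pandas 2.3.3, and drawn with matplotlib 3.10.9.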

Additional observations from a re-analysis of the deposited data

How the results depend on the processing

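Depth limits these results, since 7 genes shared 221 reads. No paired analysis was possible because there is a single group. Leaving out each tumor in turn gave 1 to 2 keratin genes above 0.2 FPKM in every tumor, 1 to 3 genes carried by 1 tumor, with 2 tumors left to compare, and a median log2 range of 0.38 to 0.92, lowest without tumor 2. Rescaling each tumor to sum to 1000000, which moved FPKM by 2.28 on the log2 scale, gave 4 genes above the threshold in every tumor, 7 in at least 1, a mean sum of 6.61 and 2 genes carried by 1 tumor. The threshold was not rescaled, so these counts are much like those of a lower threshold. With a threshold of 0.1 FPKM, 4 genes passed in every tumor and 1 was carried by 1 tumor. At 1 FPKM, 0 passed in every tumor and 0 in any, so no range could be given. Without a filter 2 genes were carried by 1 tumor. The median range was then 0.12 at deposited values, which for the silent genes reflects only depth and gene length, and 0 with silent genes at 0, an alternative chosen after seeing the data that also left 2 genes carried. With a share over 50% the count was 3. No share over all genes was taken for the carried genes under these other settings. A pseudocount of 1 gave a range of 0.38. Without Krt10 the mean sum was 1.01 FPKM and the type II share 37.3%, and with silent genes at their deposited value the sum was 2.35. Size factors moved none of these results beyond the spread between tumors. The count of 47 genes with no read, for which alternatives were chosen after seeing the data, was 47 to 48 with each tumor left out and 48 when up to 3 reads were taken as none.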

Other observations

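Keratin-associated proteins, which embed hard keratins in hair, were looked at after the keratin values were seen. All 57 genes whose symbol starts with Krtap had no read in any tumor, as had Krtdap, a gene of differentiating keratinocytes. Krtcap2 and Krtcap3, which share part of their name with the keratins but are no filament proteins, had 22.8, 18.4 and 27.7 FPKM and 9.97, 22.5 and 5.07 FPKM in tumors 1, 2 and 3. Krtcap3 was highest in tumor 2, as Krt18 was.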
